A study of Mus musculus with 24 samples.

Results

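This account follows 36 genes of skeletal muscle contraction and excitation through the embryonic jaws of mice that lack the TGF-beta type II receptor in neural crest cells, and of their control littermates. The genes were chosen by name, with earlier results of these data known. They are the thick filament, thin filament, sarcomere scaffold, excitation and calcium, and energy and other genes of muscle fibres. Each was represented by its platform probe set with the highest mean over 24 arrays. Shares of members set beside shares of all genes are thus descriptions and no independent support. All 36 of the 36 were on the array and passed the filter on dim genes, out of 18193 genes with a symbol and 12811 genes tested.

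RNA of 24 jaw pieces was measured on 1 array each, 3 arrays for each of 8 kinds of piece: control and mutant, maxilla (upper jaw) and mandible (lower jaw), distal and proximal pieces, all at embryonic day 14.5 with the strain given as C57B6. Females carrying Tgfbr2 fl/fl were crossed to Wnt1-Cre;Tgfbr2 fl/+ mice. Embryos with a cleft palate and a defective calvaria were taken as mutants and their littermates as controls, whose own Cre and floxed alleles the labels leave unstated. Wnt1-Cre acts in the neural crest, which forms the bone, cartilage, tendon and connective tissue of the jaw. The fibres of jaw muscle derive from mesoderm, so the genes described here are read in cells that the Cre does not target, beside cells that it does. Nothing in the labels ties a replicate to 1 embryo or to a pool, so p-values measure only how these samples spread, which may be technical.

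Contraction works by thick filaments of myosin pulling on thin filaments of actin. An action potential, started at the neuromuscular junction by acetylcholine receptors, opens the calcium release channel of the sarcoplasmic reticulum, and calcium binding to troponin on the thin filament uncovers the sites for myosin. Titin, nebulin and the proteins of the Z-disc and M-band hold the filaments in register, and creatine kinase buffers ATP. Embryonic fibres first use developmental and slow isoforms of these proteins, and fast adult isoforms and metabolic genes gain later as fibres mature.

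Myogenic regulators such as MYOD1 and myogenin bind E-boxes, so promoters of members that the results turn on are shown with their E-boxes (CANNTG, the same on both strands) in capitals. RefSeq promoter windows (GRCm38.p6) matched 28 of the 36 genes, with 32 windows of the 250 bases before an annotated start. Chrna1 (chr2:73580339-73580588, minus strand) and Acta1 (chr8:123894776-123895025, minus strand) are among the members whose mandible difference did not pass the test. Ckm (chr7:19410844-19411093, plus strand) and Atp1b4 (chrX:38315872-38316121, plus strand) are the ones with the largest falls there.
Chrna1: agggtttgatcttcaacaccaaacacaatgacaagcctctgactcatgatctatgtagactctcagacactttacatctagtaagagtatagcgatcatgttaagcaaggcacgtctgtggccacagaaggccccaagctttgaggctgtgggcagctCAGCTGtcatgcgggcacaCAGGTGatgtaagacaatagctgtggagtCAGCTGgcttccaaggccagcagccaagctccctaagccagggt
Acta1: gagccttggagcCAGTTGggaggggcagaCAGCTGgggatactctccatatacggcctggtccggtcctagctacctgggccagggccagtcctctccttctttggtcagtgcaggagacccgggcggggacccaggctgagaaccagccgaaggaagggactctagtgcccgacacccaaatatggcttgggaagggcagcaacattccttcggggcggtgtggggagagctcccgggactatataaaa
Ckm: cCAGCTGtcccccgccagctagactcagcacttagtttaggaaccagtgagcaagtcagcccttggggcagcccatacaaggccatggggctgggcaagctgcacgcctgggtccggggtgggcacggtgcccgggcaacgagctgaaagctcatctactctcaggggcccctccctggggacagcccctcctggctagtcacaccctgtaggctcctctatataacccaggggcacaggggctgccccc
Atp1b4: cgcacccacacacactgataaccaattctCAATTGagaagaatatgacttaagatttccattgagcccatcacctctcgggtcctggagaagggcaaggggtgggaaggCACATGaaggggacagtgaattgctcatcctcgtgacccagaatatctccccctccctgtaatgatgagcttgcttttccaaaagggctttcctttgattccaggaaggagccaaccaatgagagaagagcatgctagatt
These windows held 3 E-boxes for Chrna1, 2 for Acta1, 1 for Ckm and 2 for Atp1b4. The form CAGCTG, which is contained in the E-box pattern, occurred 2 times for Chrna1, 1 time each for Acta1 and Ckm and 0 times for Atp1b4. An E-box was found for 23 of the 28 genes, in 26 of their 32 windows, against 66.2% of all 32841 windows of that length. CAGCTG was found for 12 genes, in 40.6% of the members' windows and 13.0% of all windows. The MEF2 site (3 genes, 9.38% of windows against 2.92%) and the CArG box of serum response factor (4 genes, 15.6% against 1.47%) were each less common, and TATAAA on the gene's strand in the last 50 bases before the start was found for 3 genes (9.38% against 2.63%). The other patterns read the same on both strands. The CArG box of Acta1 lies in the window printed above. A match describes letters in a window and is not a bound site.

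Before the results, the pieces themselves have to be described, since jaw pieces hold varying amounts of other tissue. In 3 mutant maxilla arrays (distal 1, proximal 1 and proximal 2) the mean of 11 olfactory and nasal epithelium genes, centred on all arrays, was −0.47, −1.26 and −1.14, against 0.38 to 2.69 in the 6 control maxilla arrays and −1.34 to −1.05 in the 12 mandible arrays. The mean of 12 cartilage genes in the same 3 arrays was −2.61, −2.67 and −2.90, against −0.18 to 1.76 in control maxilla. The mean log2 level of the 36 muscle genes in the same 3 arrays was 9.81, 10.7 and 9.49, against 6.52 to 8.10 in control maxilla, and maxilla results are given with and without them. The arrays stand apart by nasal and cartilage markers, but as they are also high in muscle signal, leaving them out lowers the maxilla differences by construction. Controls of jaw identity went with the labels: all 5 mandible identity genes were higher in control mandible than in control maxilla, with Hand2 at 5.24 ± 0.26 on the log2 scale.

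**Figure D1:**
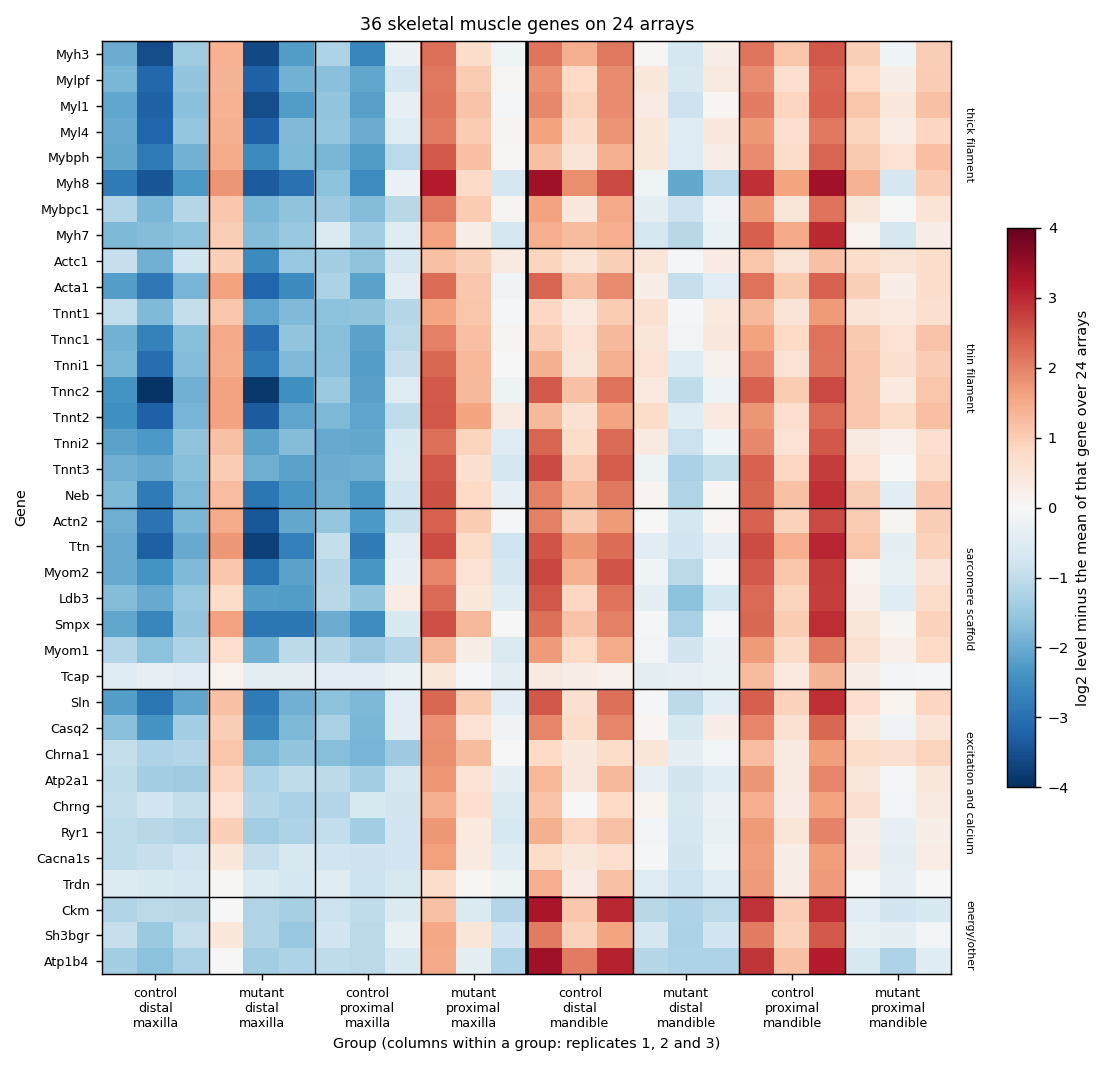
Each row is 1 of 36 genes, ordered by role, and each column is 1 of 24 arrays in 8 groups of 3. Colour gives the log2 level minus the mean of that gene over the 24 arrays, red for higher and blue for lower. Control mandible columns are mostly red, mutant mandible columns are paler, and among maxilla columns mutant distal 1 and mutant proximal 1 and 2 stand out as red in most rows.

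In controls the muscle genes gave far more signal in the mandible than in the maxilla. All 36 of 36 members were higher in control mandible, against 16.9% of all genes tested, and for all 36 the 6 mandible and the 6 maxilla arrays did not overlap (7.22% of all genes). Trdn, Cacna1s and Atp1b4 met the filter on dim genes only with control mandible arrays, so their calls add no support. The median difference of the members was 3.29 (log2), against 0.01 for all genes. In such bulk RNA, fewer muscle cells and less muscle RNA per cell cannot be told apart. The jaw tests count both ends of a jaw as separate arrays. Same-numbered control ends deviated together, however (r of 0.46 to 0.54 over genes in mandible and 0.11 to 0.50 in maxilla), so the p-values overstate the replication. Myh8, the perinatal myosin heavy chain, differed most, by 4.77 ± 0.79 (27.4-fold, limma adjusted p = 0.000146). Its levels in control mandible were 11.31, 9.77 and 10.56 distally and 10.84, 9.49 and 11.26 proximally, against 5.13, 4.50 and 5.60 and 6.29, 5.38 and 7.67 in maxilla. The lowest mandible array thus lay above the highest maxilla array by more than 1 log2 unit. Ttn encodes titin, the spring that runs from Z-disc to M-band. It was 18.1-fold higher in mandible, at 11.56, 10.79 and 11.27 distally and 11.65, 10.50 and 12.11 proximally against 7.03, 5.78 and 7.03 and 8.08, 6.25 and 8.64. Tnnc2 (fast troponin C) was 16.4-fold higher, at 12.44, 11.16 and 12.16 and 12.37, 11.01 and 12.64 against 7.62, 6.06 and 8.06 and 8.52, 7.83 and 9.48. In both genes the proximal array of number 3 was the highest maxilla value, still below every mandible array. Neb (nebulin, which runs along the thin filament) was 14.6-fold, Smpx (a small protein of the sarcomere margin) 14.3-fold and Myom2 (an M-band protein) 14.0-fold higher.

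The jaw difference ran through every role. Medians were 3.37 for the 8 thick filament genes, 3.48 for the 10 thin filament genes and 3.69 for the 7 scaffold genes. They were 2.30 for the 8 excitation and calcium genes and 3.34 for the 3 genes of energy and other functions. The smallest difference was that of Tcap (telethonin, which caps titin at the Z-disc), at 1.04 ± 0.15 (adjusted p = 5.13e-05). Of 52 other muscle fibre genes tested, 45 were higher in control mandible and 0 were lower. Of 21 myogenic regulators, 13 were higher and 6 lower. Other tissues differed between the jaws too: 6 of 10 tendon and 4 of 6 osteoblast genes were higher in mandible, while 11 of 11 nasal and 8 of 11 neuron genes were lower (medians −2.55 and −2.70). Their part in the muscle result was not tested. With the regulators' mean as a covariate, 17 of the 36 members kept the call.

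The number 2 arrays of the mandible were the low ones. The mean of the 36 members was 10.59, 9.61 and 10.46 in control distal mandible and 10.75, 9.54 and 11.10 in control proximal mandible, for numbers 1, 2 and 3. The mutant values were 8.73, 7.93 and 8.56 distally and 9.33, 8.73 and 9.39 proximally. Number 2 was lowest in each of these 4 groups, and the 6 control mandible arrays still lay above all 6 mutant ones. In order of the group mean, control proximal mandible (10.5 ± 0.82, SD, n = 3), control distal mandible (10.2 ± 0.53), mutant proximal maxilla (9.54 ± 1.13), mutant proximal mandible (9.15 ± 0.37), mutant distal mandible (8.41 ± 0.42), mutant distal maxilla (7.73 ± 1.82), control proximal maxilla (7.49 ± 0.58) and control distal maxilla (6.98 ± 0.40) followed each other. The ranges of neighbours in this order overlapped for every pair, the narrowest being mutant proximal and mutant distal mandible, whose lowest and highest arrays were both 8.73.

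The mutants were set against the same control mandible arrays. In mutant mandible all 36 members had lower means than in control, at both ends. In the distal mandible 4 of 36 fell, against 0.468% of all genes tested: Atp1b4, Ckm, Sh3bgr and Trdn. Of these, Atp1b4 and Trdn met the filter on dim genes only through control mandible, as given below. For 31 of the 36 the 3 mutant and the 3 control arrays did not overlap, against 8.91% of all genes. The median difference was −1.69 (all genes: 0.03), and 24 members had an unadjusted p under 0.05. Among all 12811 genes tested, 1620 did, in either direction. In the proximal mandible 6 of 36 fell, against 3.07% of all genes: these 4 together with Myh7 and Tcap. There 18 members did not overlap (15.4% of all genes), the median difference was −1.24 (all genes: −0.04), and 10 had an unadjusted p under 0.05. At this end 2492 of all 12811 genes tested did, in either direction. The 4 calls shared by both ends were 100% of the distal and 66.7% of the proximal ones. The ends have no array in common, but they are not independent. Same-numbered ends deviated together (r of 0.46 to 0.54 over genes in control and 0.35 to 0.44 in mutant mandible). Both tests also use 1 estimate of the spread per gene, taken over all 8 groups, the mutant maxilla among them. Neither test used the replicate numbers, though same-numbered mutant and control mandible arrays deviated together too (r of 0.15 to 0.51).

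All 3 genes of energy and other functions fell at both ends, with medians of −3.59 and −2.88, and Atp1b4 and Ckm had the largest mean difference over the ends of all 36 members. Atp1b4 is a muscle member of the family of sodium pump beta subunits. Its level was 9.64, 8.34 and 9.33 in control distal mandible and 5.13, 5.02 and 5.04 in mutant. Proximally it was 9.12, 7.43 and 9.41 in control and 5.64, 5.02 and 5.77 in mutant. All mutant values were close to those of control maxilla (4.63 to 5.64), which holds little muscle RNA. The probe set was above the array median on 7 arrays, the 6 control mandible arrays and mutant proximal maxilla 1. It thus met the filter on dim genes only through the group where it is high, and its call is no support for a fall of the members. With all mutant mandible values below the median, the size of the fall is not well measured and no fold is given. The difference was −4.04 ± 0.57 distally (adjusted p = 0.0017) and −3.17 ± 0.57 proximally (adjusted p = 0.00552). It passed in all 17 alternative settings at each end, among them the fit without that filter.

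Ckm encodes muscle creatine kinase, which regenerates ATP from phosphocreatine. Its level was 10.79, 8.60 and 10.52 in control distal mandible against 6.41, 6.29 and 6.43 in mutant, and 10.40, 8.49 and 10.48 in control proximal mandible against 7.08, 6.76 and 6.89 in mutant. The controls of number 2 were the lowest controls, and still above every mutant array by more than 1 log2 unit. Ckm fell by 3.59 ± 0.59 distally (adjusted p = 0.00586) and by 2.88 ± 0.59 proximally (adjusted p = 0.0118), with mutant proximal 1 the only mutant mandible array above its median. A second, dim Ckm probe set did not follow: it was above the array median on 1 of 24 arrays and differed by 0.02 and 0.18. Sh3bgr, a small protein of cardiac and skeletal muscle, was at 9.58, 8.43 and 9.08 in control and 6.84, 6.25 and 6.75 in mutant distal mandible, and at 9.55, 8.41 and 9.95 against 7.21, 7.12 and 7.40 proximally. The genotypes did not overlap. It fell by 2.41 ± 0.53 distally (adjusted p = 0.0357) and by 2.06 ± 0.53 proximally (adjusted p = 0.0333), and its 2 other probe sets, above the median on 0 arrays, differed by 0.09 or less.

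**Figure D2:**
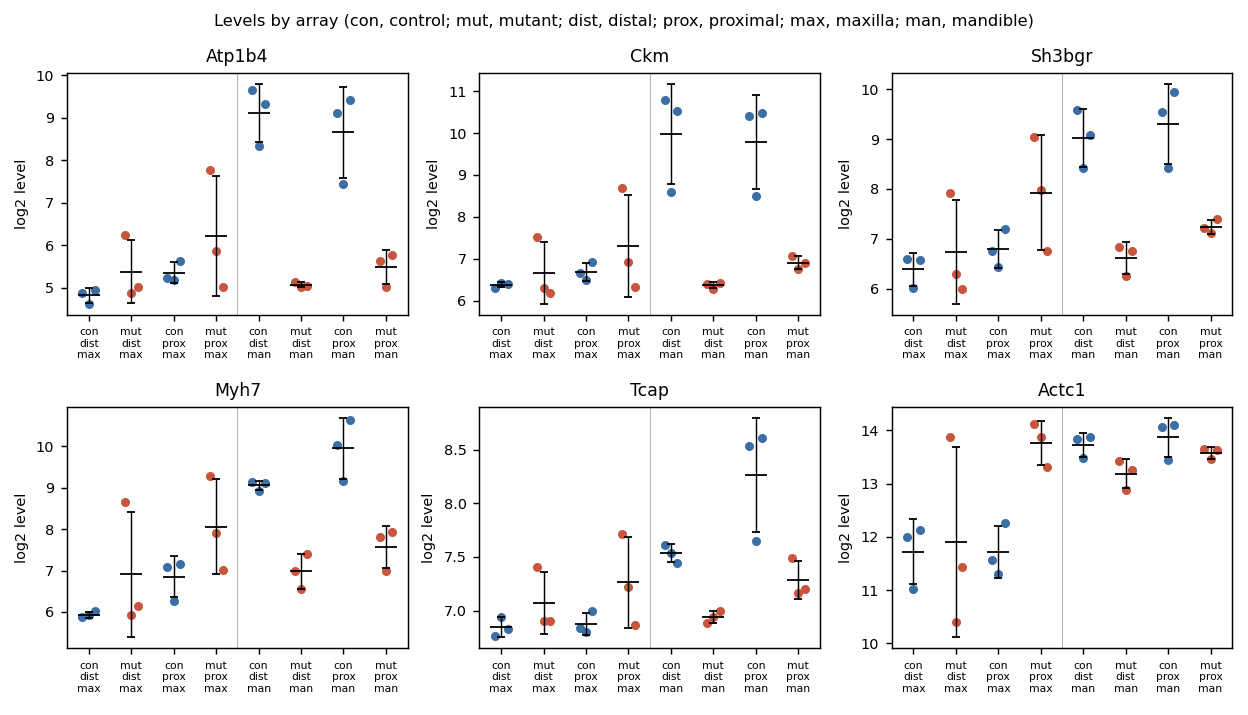
Log2 levels of 6 members on each of 24 arrays, with the mean and SD of each group of 3 (blue, control; red, mutant; maxilla left and mandible right of the grey line; the vertical axes do not start at 0). Atp1b4 and Ckm in mutant mandible sit near the levels of control maxilla, while Actc1 in mutant proximal mandible, at 13.45 to 13.64, overlaps control at 13.45 to 14.11.

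Thick filament genes differed by a median of −1.66 distally and −1.05 proximally, and 1 of 8 fell, at the proximal end. Myh7, the slow and cardiac beta myosin heavy chain, was at 10.04, 9.17 and 10.64 in control proximal mandible and 7.81, 7.0 and 7.93 in mutant, so no mutant array reached the lowest control. It fell by 2.37 ± 0.60 there (adjusted p = 0.0314). Distally it was at 9.13, 8.93 and 9.11 in control and 6.99, 6.56 and 7.39 in mutant, a difference of −2.08 ± 0.60 with adjusted p = 0.116. Myh8 had the larger distal difference, −3.71 ± 1.12, with adjusted p = 0.139, from 11.31, 9.77 and 10.56 in control to 7.74, 5.87 and 6.88 in mutant. Myh3, the embryonic myosin heavy chain, differed by −2.03 ± 0.94 distally (adjusted p = 0.379), from 13.16, 12.46 and 13.14 to 11.08, 10.32 and 11.28. The 3 myosin heavy chain genes are close relatives, as are Acta1 and Actc1, and the probe sets of Tnnt2, Trdn and Myom2 are of the kind that can bind other transcripts, so their values are less certain. The smallest differences of this role were those of Mybph (−0.98 and −0.70), a myosin binding protein, and Myl4 (−1.27 and −0.83), the embryonic light chain.

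Of the 10 thin filament genes limma called 0 at either mandible end, with 5 distally and 0 proximally at an unadjusted p under 0.05. Their medians were −1.50 distally and −0.91 proximally. Actc1, the alpha-cardiac actin that embryonic skeletal fibres use, had the smallest proximal difference of all members, −0.29 ± 0.56 (adjusted p = 0.83), and −0.54 ± 0.56 distally. Its levels were 14.06, 13.45 and 14.11 in control and 13.64, 13.45 and 13.63 in mutant proximal mandible. The groups overlapped at the number 2 arrays. Acta1, the actin of mature skeletal muscle, was at 13.48, 12.35 and 13.04 in control and 11.41, 10.23 and 10.75 in mutant distal mandible, a difference of −2.16 ± 0.88 (adjusted p = 0.304). Tnnt3, the fast troponin T, had the largest distal difference of the role, −2.83 ± 0.80 (adjusted p = 0.109), and Tnnt1, the slow troponin T, the smallest, −0.44 ± 0.58.

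Scaffold genes had medians of −2.26 distally and −1.58 proximally. Tcap fell proximally by 0.98 ± 0.21 (adjusted p = 0.0158), from 8.53, 7.65 and 8.61 in control to 7.49, 7.16 and 7.20 in mutant. Distally its levels were 7.61, 7.54 and 7.45 in control and 6.89, 6.94 and 6.99 in mutant, groups that did not overlap, with adjusted p = 0.244. Ldb3, a Z-disc adaptor, differed by −2.73 ± 0.78 and −1.83 ± 0.78, Myom2 by −2.63 ± 0.82 and −1.99 ± 0.82, and Ttn by −2.68 ± 1.05 and −1.82 ± 1.05, none of which passed. Actn2, the alpha-actinin of the Z-disc, was at 11.17, 10.19 and 10.84 in control and 9.14, 8.46 and 9.22 in mutant distal mandible (−1.80 ± 0.87, adjusted p = 0.403).

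Excitation and calcium genes had medians of −1.52 distally and −1.23 proximally, and 1 of 8 fell at each end. Trdn encodes triadin, which anchors calsequestrin to the calcium release channel. It was at 6.98, 5.87 and 6.73 in control and 5.02, 4.70 and 5.02 in mutant distal mandible, and at 7.24, 5.81 and 7.25 against 5.55, 5.22 and 5.51 proximally, with no overlap at either end. It fell by 1.62 ± 0.34 there (adjusted p = 0.0266) and by 1.34 ± 0.34 proximally (adjusted p = 0.0314). Its signal was above the array median on 3 of 24 arrays, all control mandible (distal 1, proximal 1 and proximal 3). It thus met the filter on dim genes only through the group where it is high, and its call is no support for a fall of the members. Without that filter it was called as well. Of its 5 other probe sets, 3 differed by −1.30 to −1.38 distally and the 2 dimmest by −0.28 and −0.35. Sln, the sarcolipin that slows the calcium pump, differed by −2.30 ± 0.83 distally without passing (adjusted p = 0.235), from 11.61, 9.77 and 11.31 to 9.03, 8.08 and 8.67. Ryr1, the calcium release channel itself, differed by −1.52 ± 0.55 and −1.35 ± 0.55. The acetylcholine receptor subunits differed least: Chrna1 by −0.65 ± 0.56 and −0.34 ± 0.56, and Chrng, the fetal subunit, by −0.89 ± 0.49 and −0.83 ± 0.49. Chrna1 overlapped between genotypes at both ends, at 9.45, 9.34 and 9.58 in mutant and 9.95, 9.07 and 10.38 in control proximal mandible.

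**Figure D3:**
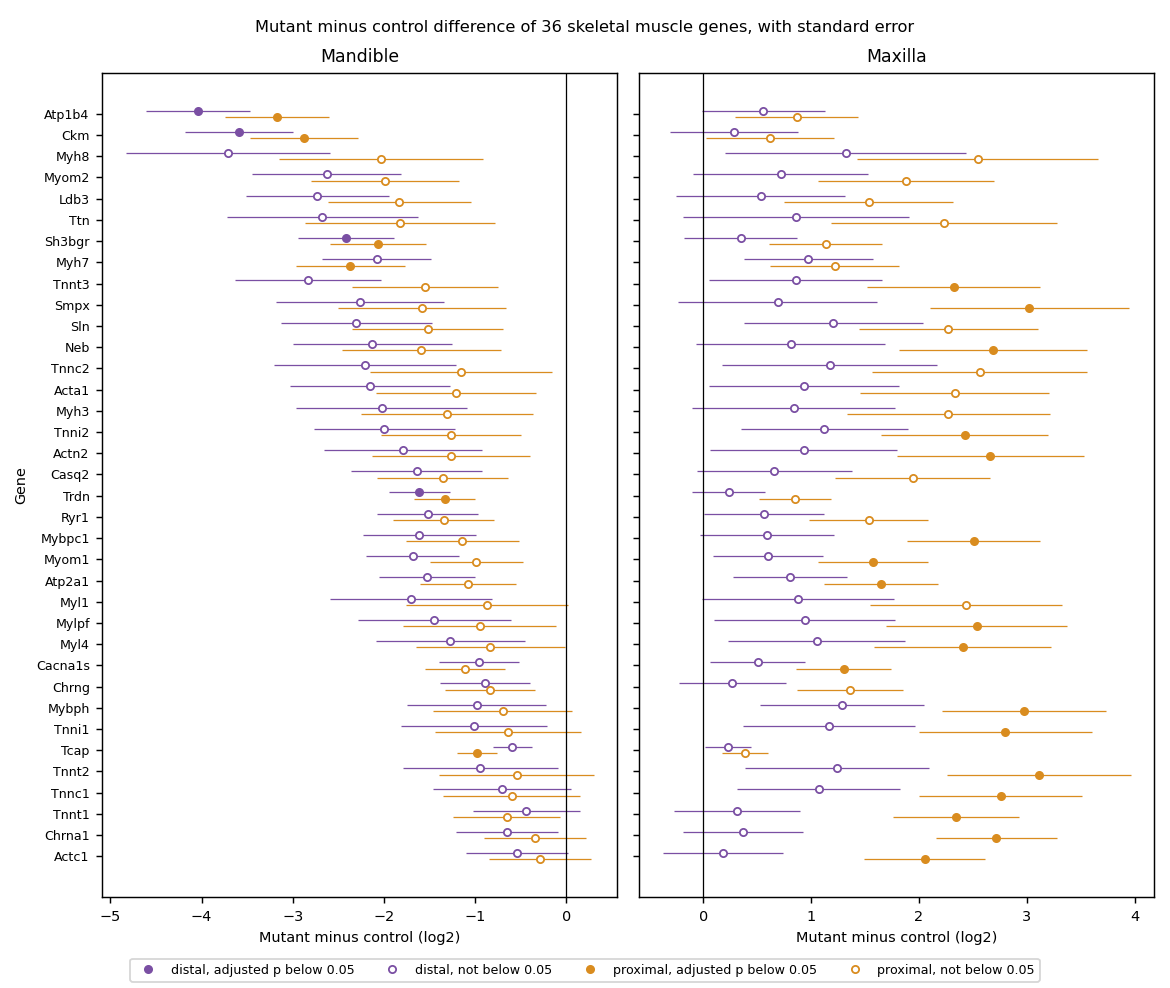
Difference between mutant and control (log2) with its standard error for each of the 36 members, in mandible (left) and maxilla (right). Purple marks the distal and orange the proximal end, and filled points have a limma adjusted p below 0.05. Genes are ordered by the mean of the 2 mandible differences: every point lies below 0 in mandible and above 0 in maxilla.

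Isoform classes had different medians, which were not tested against each other. The 6 fast isoforms (Myl1, Mylpf, Tnnt3, Tnni2, Tnnc2, Atp2a1) had a median of −1.85 distally and −1.12 proximally. The 6 developmental ones (Myh3, Myh8, Myl4, Actc1, Tnnt2, Chrng) were at −1.11 and −0.83. The 4 slow ones were at −0.86 and −0.65, with Myh7 apart from the other 3, which lay between −1.01 and −0.44 at both ends. Between the ends, limma called a different mutant effect for 0 of 36 members, with 0 at an unadjusted p under 0.05, and for 0% of all genes tested. The 3 smallest p-values were those of Tcap (0.39 ± 0.30), Tnnt3 (−1.28 ± 1.13) and Atp1b4 (−0.87 ± 0.81), distal minus proximal.

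The number of calls in mandible varied with the samples and settings used. The share of all genes called under each setting is not given here, so these counts describe the members only. In the distal mandible the number of members that fell was 4, and 10 with the replicate number as a block, in which Ldb3, Myh7, Myh8, Myom1, Myom2 and Tnnt3 joined the 4. It was 18 without the 3 maxilla arrays and 2, Atp1b4 and Ckm, without control 1, control 3 or any of mutant 1, 2 and 3. In the proximal mandible it was 1, Atp1b4, without control 1 or control 3, and 3, Atp1b4, Ckm and Tcap, without mutant 1 or mutant 2. With the regulators' mean as a covariate, Atp1b4 (−3.61, adjusted p = 0.000992) and Ckm (−3.19, adjusted p = 0.00425) fell distally, together with Sh3bgr and Trdn. That mean itself follows the member mean, so this fit is no independent check.

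The list of myogenic regulators gave no call in mandible. Of 21 myogenic regulators tested, limma called 0 in the distal and 0 in the proximal mandible, with 2 and 4 at an unadjusted p under 0.05, and their medians were −0.13 and −0.12. Of the 21, 16 lay below 0 distally and 15 proximally, against 5332 and 7530 of all 12811 genes tested. Their centred mean was 0.14 in control and −0.08 in mutant distal mandible, and 0.38 and 0.08 proximally. Myod1, which commits myoblasts, differed by −0.03 ± 0.51 distally and −0.50 ± 0.51 proximally. Myog, the regulator of terminal differentiation, differed by −0.07 ± 0.68 and −0.13 ± 0.68. With standard errors of this size, a difference of 1 log2 unit in either gene would not have been detectable. Of 52 other fibre genes, 3 fell distally (Casq1, −1.78 ± 0.36; Pdlim3, −1.38 ± 0.29; Cacna2d1, −0.88 ± 0.17) and 5 proximally (Csrp3, −2.12 ± 0.58; Ankrd1; Pdlim3; Myl3; Nrap). None rose, and 50 and 49 of the 52 lay below 0.

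Other tissue of the mandible pieces moved as well. Of 10 tendon genes, 3 fell at each end. Scx, the tendon progenitor factor, fell by 1.28 ± 0.20 distally and 1.39 ± 0.20 proximally, and Fmod, a tendon matrix proteoglycan, by 1.48 ± 0.27 and 1.28 ± 0.27. The others were Tnmd distally and Thbs4 proximally. The centred mean of 12 cartilage genes was 0.91, 1.09 and −0.28 in control and −2.28, 0.36 and −2.00 in mutant distal mandible, and 0.56, 0.82 and −1.33 in control and 1.22, 1.70 and 1.34 in mutant proximal mandible. Cartilage thus lay lower in 2 of 3 mutant distal pieces and higher in the mutant proximal pieces, while the muscle genes lay lower at both ends. Limma called 0 of the 12 cartilage genes at either end (4 distally and 0 proximally at an unadjusted p under 0.05). Nasal genes were at −1.34 to −1.05 in every mandible array. The part of tendon and cartilage content in the muscle result was not tested.

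In the proximal maxilla, mutant means were higher than control means. There 18 of 36 members rose, against 12.2% of all genes rising, and for 26 the mutant and control arrays did not overlap (19.5% of all genes). Of the 18, Cacna1s was above the array median only on control proximal mandible 1 and 3 and mutant proximal maxilla 1. It thus met the filter on dim genes only through groups where it is high, and its call adds no support. Cacna1s is also among the 26, as is Trdn, which met that filter only with control mandible arrays. The median difference was 2.30 (all genes: 0.01). Tnnt2, the embryonic and cardiac troponin T, rose by 3.11 ± 0.85 (8.65-fold, adjusted p = 0.0133), from 7.97, 7.67 and 8.76 in control to 12.26, 11.34 and 10.13 in mutant. Chrna1, the alpha subunit of the acetylcholine receptor, rose by 2.72 ± 0.56 (6.57-fold, adjusted p = 0.00249), from 7.01, 6.84 and 7.25 to 10.56, 9.96 and 8.73. Smpx rose by 3.02 ± 0.92 (5.85, 5.32 and 7.23 in control, 10.44, 9.16 and 7.87 in mutant) and Mybph by 2.97 ± 0.76 (6.78, 6.33 and 7.55 against 11.06, 9.82 and 8.70). Tnni1, the slow troponin I, rose by 2.80 ± 0.80 (8.59, 8.04 and 9.34 against 12.55, 11.58 and 10.24), and Tnnc1, the slow and cardiac troponin C, by 2.75 ± 0.76 (8.73, 8.30 and 9.36 against 12.47, 11.65 and 10.54). In all 6 genes the mutant arrays lay above the control arrays, with mutant 3 nearest to them.

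By role, 8 of 10 thin filament genes, 4 of 8 thick filament genes and 3 of 7 scaffold genes rose in the proximal maxilla. So did 3 of 8 excitation and calcium genes, the dim Cacna1s among them, and 0 of 3 genes of energy and other functions. Ckm stood at 6.66, 6.49 and 6.93 in control and 8.68, 6.93 and 6.33 in mutant (0.62 ± 0.59, adjusted p = 0.501). Atp1b4 stood at 5.24, 5.18 and 5.64 in control and 7.78, 5.85 and 5.02 in mutant (0.86 ± 0.57, adjusted p = 0.304). For both, 1 mutant array was high and the groups overlapped. The regulators rose here with the fibre genes, 12 of 21 higher and 4 lower, with Myog at 3.13 ± 0.68 and Myod1 at 2.81 ± 0.51. Of the 52 other fibre genes 24 rose, led by Klhl41 (3.00 ± 0.73).

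Markers of several other tissues moved in the same comparison. Of 11 nasal genes 9 fell, of 12 cartilage genes 7 fell and of 11 neuron genes 7 fell, while 9 of 11 surface epithelium genes and 9 of 9 macrophage genes rose. The low nasal and cartilage means are those of mutant 1 and 2. The surface epithelium mean was 0.68, 0.63 and 0.52 in mutant proximal maxilla 1, 2 and 3 against −1.80, −1.31 and 0.09 in control, so it was high in all 3 mutant pieces. The part of tissue content in the muscle result was not tested. Without the 3 maxilla arrays only mutant 3 is left in the mutant group, its spread being assumed like that of the other groups, and 1 member, Chrna1, rose. This count is of little weight, since the arrays removed are those with the most muscle signal. With the regulators' mean as a covariate 0 rose, but the regulators rose here too, so the covariate removes muscle signal by construction. Without mutant 1 the count was 1, without mutant 2 it was 5, without control 1 it was 7, without control 2 it was 5, and without mutant 3 it was 32. Fitted on the 6 proximal maxilla arrays alone, 6 members passed.

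In the distal maxilla no member passed (limma, 0 of 36, with 0 at an unadjusted p under 0.05; 0.195% of all genes passed). The median difference of 0.81 rested on mutant 1. The smallest p-values were those of Mybph, Myh7 and Atp2a1. Mybph was at 6.58, 5.79 and 6.74 in control and 10.09, 6.06 and 6.81 in mutant (1.28 ± 0.76, adjusted p = 0.666). Myh7 was at 5.87, 5.92 and 6.02 against 8.65, 5.94 and 6.13 (0.97 ± 0.60, adjusted p = 0.676), and Atp2a1, the calcium pump of the sarcoplasmic reticulum, at 7.22, 6.88 and 6.81 against 9.10, 6.99 and 7.22 (0.80 ± 0.53, adjusted p = 0.703). In all 3 genes mutant 1 stood more than 1 log2 unit above the rest, and mutant 2 and 3 lay close to control. Without the 3 maxilla arrays the median was −0.29, and 28 of the 36 members lay below 0.

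**Figure D4:**
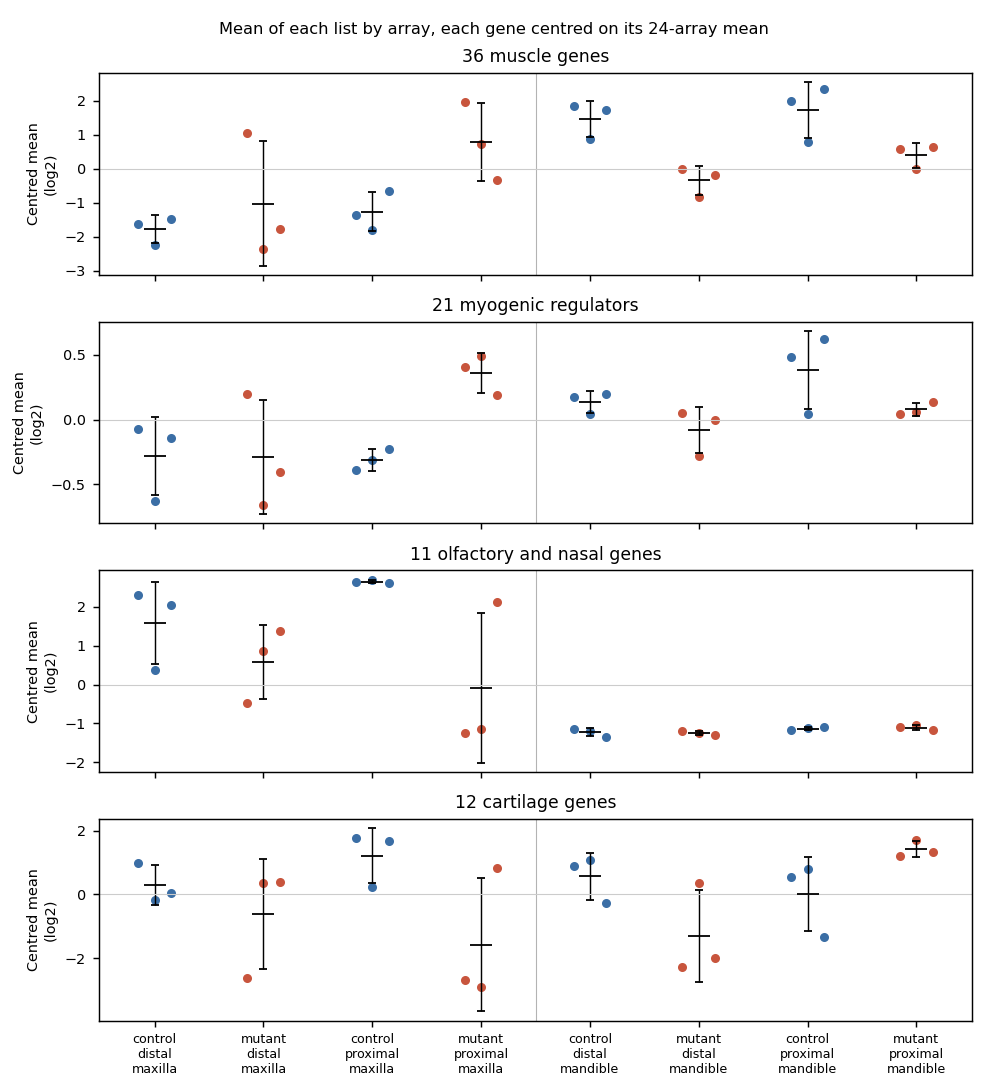
Mean of 4 gene lists on each of 24 arrays, each gene centred on its mean over the arrays (log2), with the mean and SD of each group of 3 (blue, control; red, mutant). In mutant maxilla, distal 1 and proximal 1 and 2 combine high muscle means with nasal means of −1.26 to −0.47 and cartilage means of −2.90 to −2.61, and in mandible the muscle genes separate the genotypes while the nasal genes do not.

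The mutant difference was tested between the jaws as an interaction, which uses the same arrays as the comparisons above. For 34 of 36 members the difference was lower in mandible than in maxilla, against 4.33% of all genes. The exceptions were Tnnt1 (−1.88, adjusted p = 0.0535) and Actc1 (−1.54, adjusted p = 0.0916), and the median was −2.96. Among the 34, Trdn, Cacna1s and Atp1b4 met the filter on dim genes only with control mandible arrays, so their calls add no support. Without the 3 maxilla arrays, a choice that shrinks this difference by construction, 5 members remained, Myh7, Trdn, Ckm, Atp1b4 and Sh3bgr. With the regulators' mean as a covariate, which also removes muscle signal by construction, Atp1b4 alone did. Leaving out 1 array gave counts from 19 (without mutant proximal maxilla 1) to 36 (without mutant distal maxilla 2). The counts were 20 to 22 without mutant proximal maxilla 2, control distal maxilla 1, control proximal maxilla 2, control distal mandible 1, or control proximal mandible 1 or 3.

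Averaged over the 4 pieces that share a genotype and a number, which sets opposite differences of the jaws against each other, 0 of 36 members passed (limma; 1.09% of all genes did), 2 had an unadjusted p under 0.05 and the median was −0.05. The 2 were Atp1b4 (−1.45 ± 0.35, adjusted p = 0.113) and Ckm (−1.39 ± 0.37, adjusted p = 0.136), followed by Sh3bgr (−0.75 ± 0.33, adjusted p = 0.326). Atp1b4 and Ckm passed with array weights and when all 24 arrays entered as regional contrasts.

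Within controls, the ends of a jaw did not differ for any member by limma. In the mandible 0 of 36 passed (5.78% of all genes did) and 1 had an unadjusted p under 0.05: Tcap, 0.73 lower distally (7.61, 7.54 and 7.45 against 8.53, 7.65 and 8.61; −0.73 ± 0.21, adjusted p = 0.0514). With the replicate number as a block Tcap passed, and also without control proximal mandible 2. Myh7 was −0.89 ± 0.60 (adjusted p = 0.50) and Cacna1s, the voltage sensor of the fibre membrane, −0.58 ± 0.44. In the maxilla 0 of 36 passed (8.42% of all genes did) and 0 had an unadjusted p under 0.05. The smallest p-values there were those of Myh7 (−0.91 ± 0.60), Tnnc2 (−1.36 ± 1.00) and Sln (−1.09 ± 0.83), each lower distally. The end difference did not differ between the jaws for any member by limma (0 of 36; 4.01% of all genes passed), with 1, Tcap (−0.70 ± 0.30), at an unadjusted p under 0.05, followed by Chrna1 (−0.997 ± 0.79) and Atp1b4 (0.98 ± 0.81).

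The members moved together across the 24 arrays, and this is given as a description, since the arrays share jaws and genotypes. The Pearson correlation of a member with the mean of the other 35 was over 0.9 for 32 of 36. Ckm (0.82), Atp1b4 (0.83), Tcap (0.83) and Trdn (0.88) were the other 4, and all 4 are among the genes that fell in mutant mandible. The calls come from the same arrays, and a member that falls further than the rest correlates less with them, so this is no separate support. Tcap and Trdn also had the smallest ranges over the arrays (1.85 and 2.56). Myh7 (0.947) and Sh3bgr (0.925), which fell too, were over 0.9. Within the 12 control arrays the same correlation was 0.97 for Ckm and 0.98 for Atp1b4, and within the 12 mutant arrays it was 0.82 and 0.79. Of 12775 other genes tested, 70 had a correlation over 0.9 with the member mean. The 10 highest were Srpk3 and Itgb1bp2 (0.995 each), Il17b (0.992), Myoz2, Apobec2, Tceal7, Ablim3, Myot, Hjv and Klhl40 (0.982), of which Myoz2 and Myot encode Z-disc proteins. The mean of the regulators had a correlation of 0.90 with the member mean, 0.91 within each genotype.

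Levels were also set against the rest of the muscle genes, as each member minus the mean of the other 35. Subtracting that mean makes some members higher whenever others are lower. The examples below were chosen after their values were seen, and this measure was not tested. Mutant proximal maxilla 1 had a mean of 10.7 over the members, close to 10.75 in control proximal mandible 1, and Actc1 at 14.12 and 14.06, but Ckm at 8.68 and 10.40 and Atp1b4 at 7.78 and 9.12. Ckm minus the mean of the other 35 ranged from −1.08 to 0.21 in control mandible and from −2.57 to −1.68 in mutant mandible, which did not overlap. For Atp1b4 the ranges were −2.17 to −0.97 and −3.82 to −2.99. Chrna1 and Tnnt2 lay the other way, at −1.13 to −0.48 against 0.05 to 0.63, and at 0.50 to 0.95 against 1.42 to 1.85. Relative to the other muscle genes, mutant mandible thus gave less Ckm and Atp1b4 signal and more Chrna1 and Tnnt2 signal. Log2 values flatten near the bottom of the scale, where Ckm and Atp1b4 lie in mutants, and genes differ in how steeply they follow the mean, which limits this comparison.

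**Figure D5:**
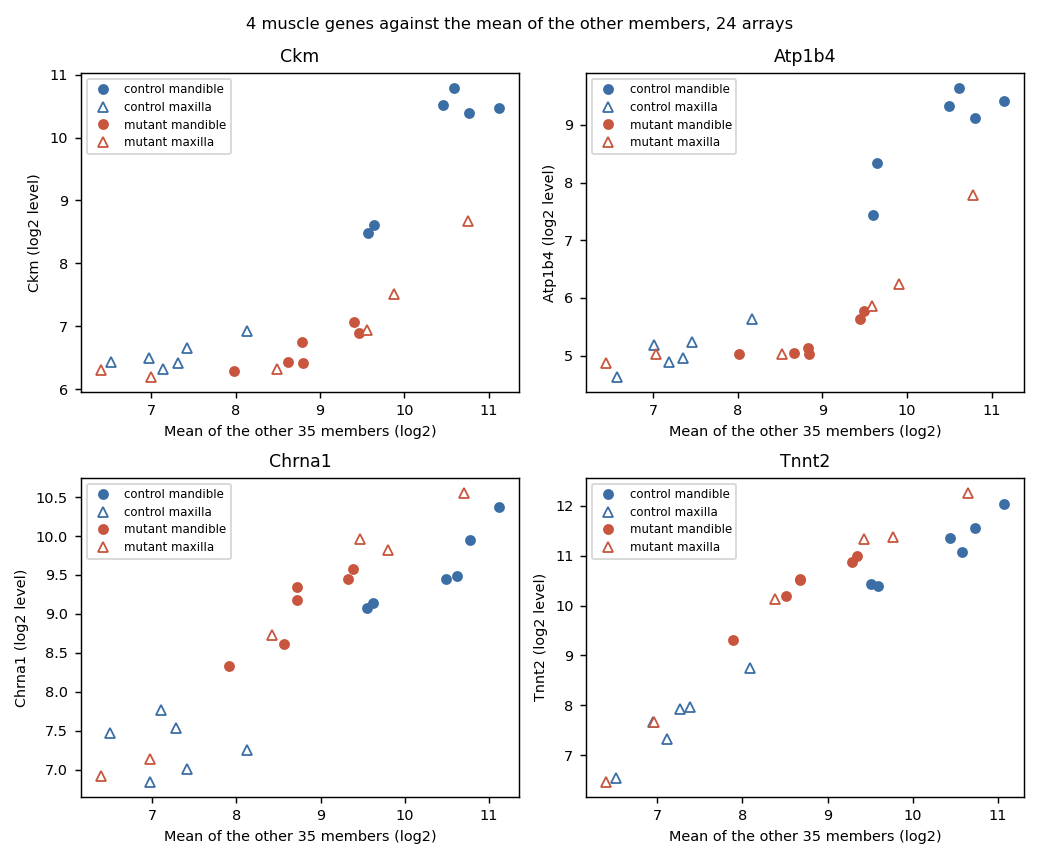
Log2 level of Ckm, Atp1b4, Chrna1 and Tnnt2 (vertical) against the mean of the other 35 members (horizontal) on 24 arrays (blue, control; red, mutant; filled circles, mandible; open triangles, maxilla). At a similar horizontal position, mutant arrays with high means lie below control arrays for Ckm and Atp1b4 and at or above them for Chrna1 and Tnnt2.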

How the data were processed

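RNA from distal and proximal pieces of maxilla and mandible was hybridised to Affymetrix mouse arrays, 24 in all. The authors' deposited values are on a log2 scale, judged from their range (3.44 to 14.8), and carry array medians from 6.929 to 6.999. RMA and Partek 6.6 are named per the submitters' processing notes, their settings being not given in the sources used here. RMA forces arrays to 1 distribution, and dim values are compressed. Gene symbols came from the platform annotation, and only probe sets with 1 symbol were used (34945 with 1, 932 with several). A gene was read from its brightest probe set by the mean over 24 arrays, and 23 members had only 1.

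Genes above the array's median in at least 3 of 24 arrays were tested (12811) in 1 moderated linear model of 8 group means over all 24 arrays (limma 3.58.1, R 4.3.3), with two-sided p-values adjusted over all genes tested by Benjamini-Hochberg and a threshold of 0.05. Differences are log2, mutant minus control, distal minus proximal or mandible minus maxilla, ± standard error; levels are ± SD. Precision is limited, with a median standard error in 1 region of 0.77 for members and 0.11 for all genes, on the same arrays. The spread of each gene is estimated over all 8 groups. The SD of the member mean was 1.82 in mutant distal and 1.13 in mutant proximal maxilla, against 0.37 to 0.82 in the mandible groups. Standard errors given for mandible thus include the maxilla spread. The fit was tested on simulated data with independent noise, in which 100 genes changed by 1 and 100 by 2 log2 units. It recovered 92% and 95% of them, with 12 false calls. The changed genes were drawn from all genes tested, so this does not show what could be found for the members. No pair of arrays within a group was a duplicate, and pairs across groups were not compared.

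Members and lists were chosen with earlier results of these data known. Any member could be named. Values on every array were given for most members that passed in a comparison (largest first, up to 6 each way) and for the brightest member of each role. Where fewer than 3 passed, those with the 3 smallest p-values were given. The 10 genes with the highest correlation to the member mean were named, with up to 4 genes of a marker list. Replicate numbers were judged to pair samples where every same-numbered pair correlated over 0.1 in its deviations from the group means. This held for mutant and control mandible (0.15, 0.51 and 0.49 distally; 0.30, 0.32 and 0.30 proximally), for the control ends of each jaw, for the mutant ends of the mandible and for control proximal mandible with maxilla. It did not hold for mutant and control maxilla, nor for some pairs joined in the average over same-numbered pieces (mutant maxilla ends of number 2, −0.09; control distal mandible and maxilla of number 2, 0.03). The model of 8 group means did not use this pairing. Replicate numbers entered only as a block among the alternatives and in the average over same-numbered pieces. Alternatives covered the arrays in the fit, weights, variance model, filter, probe set rule, normalization, replicate numbers, single arrays, the 3 maxilla arrays and the myogenic regulators' mean as a covariate. Columns of no listed sample numbered 0.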

Additional observations from a re-analysis of the deposited data

Results flagged for a closer look

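The mutant difference was not the same in the jaws, by a test of the difference itself (limma interaction over 24 arrays), which does not show that its direction was opposite. It was lower in mandible than in maxilla for 34 of the 36 members. The largest values were those of Myh8 (−4.81), Atp1b4 (−4.32), Ttn (−3.80), Tnnt3 (−3.78), Smpx (−3.78) and Ckm (−3.69). Myh7 (−3.32), Sh3bgr (−2.98) and Trdn (−2.02) kept the call, with Atp1b4 and Ckm, when the 3 mutant maxilla arrays low in nasal and cartilage markers were left out. Of the 34, Trdn, Cacna1s and Atp1b4 met the filter on dim genes only with control mandible arrays, so their calls add no support. Single outlying values were not tested for in groups of 3. Mutant distal maxilla 1 differed from its 2 replicates by a root mean square of 0.43 and 0.42 (log2), against 0.24 between those 2.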

How the results depend on the processing

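Of 119 alternative counts other than those leaving out 1 array, 95 stayed within 1.5 times the reported one. Members that rose in the proximal maxilla numbered 18, and 6 with only the groups compared, 32 with array weights, 29 with the replicate block, 1 without the 3 mutant maxilla arrays and 0 with the regulators' mean as a covariate; under the last, 4 single genes turned to lower: Actn2 (−0.086), Myl4 (−0.29), Mylpf (−0.27) and Myom1 (−0.002). Members that fell in the distal mandible numbered 4, and 10 with only the groups compared, 20 with array weights, 2 with the mean of probe sets, 10 with the replicate block and 18 without the 3 maxilla arrays. The jaw difference of the mutant effect went from 34 to 5 without the 3 arrays and 1 with the covariate, and the control jaw difference from 36 to 17 with the covariate. With the covariate 1 member passed for the control ends in maxilla and 1 for their difference between jaws. For the control ends in mandible 1 passed with array weights, renewed quantile normalization, the replicate block, the random block and without the 3 arrays. For the average of regions 2 passed with array weights, the covariate or regional contrasts, and 5 without the 3 arrays. Leaving out 1 array gave 1 to 32 in the proximal maxilla, 2 to 4 in the distal and 1 to 6 in the proximal mandible, 19 to 36 for the jaw difference of the mutant effect, 36 to 36 for the control jaw difference, and 0 to 1 for the control mandible ends and for their difference between jaws. The replicate block changed no other count by over 1.5 times. The share of all genes called was not set beside these counts. The regulators' mean follows the member mean (r = 0.90), so counts with that covariate lose muscle signal by construction. The causes were not tested. Dim members (Trdn and Cacna1s above the array median on 3 arrays each) limit what falls can be measured.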
